A study of Homo sapiens with 4 samples.

Results

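EJ cells, a human bladder cancer line, were compared after transfection with the circular RNA hsa_circ_0008399 (circ) or with the vector alone (vector), with 1 library of total RNA on each side. The genes described are those with 50 or more raw read counts in the higher of the 2 libraries, 12743 of the 56303 genes in the deposited count table. The study sought what lies downstream of this circle, and it also holds a vector and a circ library of a second line, T24T. Both EJ groups share the line and the transfection and differ in the transfected insert. The vector's promoter, the amount of circle made, the time after transfection and whether cells were selected are not given in the sources used here. With 1 library per group there was no replicate check, so no p-value is given and no difference can be set against the spread between cultures.

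A circular RNA forms when the end of a downstream exon is spliced to the start of an upstream one, which closes the exons into a ring without a cap or a poly(A) tail. Such rings are long-lived and are known to bind proteins and microRNAs. Earlier work on hsa_circ_0008399 in bladder cancer concerns WTAP, a subunit of the complex that writes N6-methyladenosine (m6A) on messenger RNA, and TNFAIP3, an inhibitor of NF-kB signalling. EJ itself is listed in cell line records as sharing its origin with the bladder carcinoma line T24.

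The libraries held 15639289 counts (vector) and 14703455 counts (circ). At least 1 count was seen for 23870 genes in vector and 23799 in circ, and the genes kept took 99.35% and 99.33% of all counts. The ratio of a gene is its share of the circ total over its share of the vector total, given as log2, with an exact 95% (Clopper-Pearson) interval that covers counting error only. Where values follow a gene, the raw counts stand first, vector before circ, and the log2 ratio after them. At the edge of the count limit, 37 genes had exactly 50 counts in the higher library and were kept, and 45 had 49 and were left out. A kept gene with fewer than 50 counts in 1 library passed only through the other, where its raw count is higher.

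EJ kept only part of an epithelial program in both libraries. KRT7, KRT8 and KRT18, keratins of simple epithelium, had 6981, 2259 and 4653 counts in vector and 8566, 2164 and 4512 in circ. The mesenchymal genes VIM (10424 and 9479), CDH2 (1728 and 1501) and ZEB1 (875 and 860) were also counted, whereas CDH1, the epithelial cadherin, was at 0 in both. Markers that define urothelium were at or near 0, with UPK3A, KRT5 and TP63 at 0, GATA3 at 1 and 1, and UPK2 at 23 and 28. So the label bladder cancer was not matched by urothelial differentiation markers. Of the leukocyte markers PTPRC, CD3E and LYZ, and of the stromal and endothelial markers VWF, COL1A2, DCN and LUM, none had a count in either library. Of 12 listed leukocyte markers only CD68, a lysosomal protein, passed the count limit (160 and 216, log2 ratio 0.52), and of 14 endothelial and stromal markers only MYH11 (87 and 59, -0.47) and RGS5 (48 and 68, 0.59, at least 1.5-fold higher) did, with a median of 0.06.

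Most genes stood close to the same share in both libraries. The median log2 ratio was -0.015, the middle 50% of genes lay between -0.19 and 0.16, and the 5th and 95th percentiles were -0.49 and 0.48. By the 1.5-fold limit used below, 375 genes were higher in circ, 2.94% of those kept, and 397 were lower, 3.12%. The remaining 11971 genes lay within 1.5-fold. In bulk RNA, fewer cells that express a gene and less of its RNA per cell cannot be told apart. At least 2-fold higher were 56 genes, 0.439%, and at least 2-fold lower were 39, 0.306%. The counting interval lay wholly above 0 for 20.69% of genes and wholly below 0 for 22.11%, so an interval on 1 side of 0 was common and says nothing of the spread between cultures. Other ways of scaling moved the median of all genes by at most 0.021 in size, and a list median or ratio nearer to 0 than that is not read as higher or lower.

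**Figure D1:**
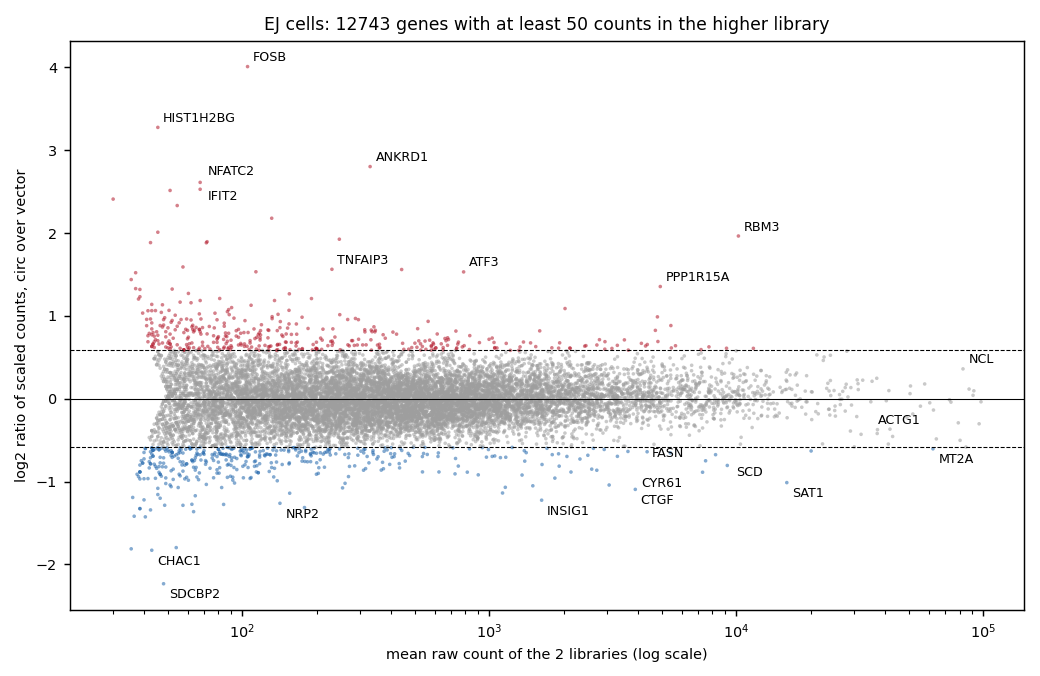
Each point is 1 of 12743 genes in EJ cells. The x axis gives the mean raw count of the 2 libraries on a log scale, the y axis the log2 ratio of scaled counts, circ over vector. Red and blue mark genes at least 1.5-fold higher (375) and lower (397), past the dashed lines. Among deeply counted genes, RBM3 and PPP1R15A stand above and SAT1, CTGF and INSIG1 below the rest.

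More genes passed the fold at low counts. Among the 2040 genes with a mean count under 100, the SD of the log2 ratio over genes was 0.473, against 0.257 that counting alone gives, and 7.89% and 9.56% were at least 1.5-fold higher and lower. Among the 1961 genes in the bin that starts at 1000 counts and ends below 3000 the SD was 0.244, against 0.053 from counting, and 1.28% and 1.38% passed. The spread over genes was therefore wider than counting error at every depth, and wider by a larger factor in deeply counted genes. Of the genes at least 2-fold apart, 4 of the 56 higher and 7 of the 39 lower had 1000 or more counts in the higher library.

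**Figure D2:**
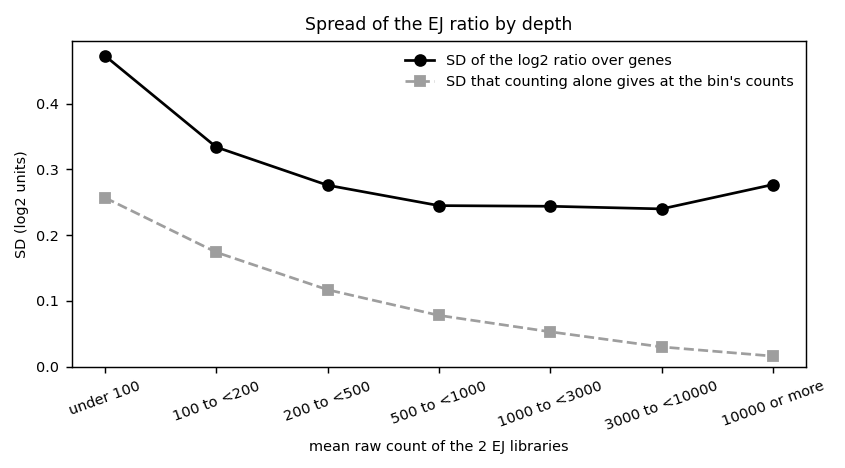
The x axis gives bins of the mean raw count of the 2 EJ libraries, the y axis an SD in log2 units. Filled circles are the SD of the log2 ratio over the genes of a bin, and squares the SD that counting alone gives. The SD over genes stays between 0.24 and 0.28 from 200 counts upward while the counting SD goes down to 0.016.

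RBM3, a cold-inducible RNA-binding protein gene, stood apart among deeply counted genes. It had 4361 counts in vector and 16010 in circ, or 279 and 1089 CPM (counts scaled to libraries of equal size), a log2 ratio of 1.97 (interval 1.92 to 2.01). The gene lies on chromosome X (chrX:48574449-48579066, hg38, plus strand). In the pair RBM3/RP11-1148L6.9, which shares 95 exon bases, the antisense transcript had a log2 ratio of 0.60. The deposited tables hold 1 value per gene and none for the circle. If the transfected circle carries exons of RBM3 and was captured in the library, its reads would count to RBM3. Such reads cannot be told apart here from the gene's own transcripts. CIRBP, the other cold-inducible protein of this kind, had 513 and 764 counts (0.66).

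RBM3 and CIRBP are listed, as a separate group of 2, with the exon junction complex and nonsense-mediated decay. That machinery marks spliced junctions and destroys transcripts with early stop codons. Of 24 genes on that list, 6 were at least 1.5-fold higher and 0 lower. The 6 were RBM3 and CIRBP, 1 of 10 complex genes and 3 of 12 decay factors. Over all 24, 23 lay above 0 and the median log2 ratio was 0.30, where 48.01% of all kept genes lay above 0. EIF4A3, the helicase that anchors the complex to RNA, had 1482 and 1729 counts (0.31, interval 0.21 to 0.41). The 10 complex genes were all above 0, led by PNN, a splicing-associated subunit (9622 and 13797, 0.61). Among decay factors, UPF3B (2195 and 3384, 0.71), UPF2 (1174 and 1762, 0.67) and SMG5 (1092 and 1542, 0.59) were at least 1.5-fold higher. UPF1, the central helicase of decay, was level with 1730 and 1619 counts (-0.01), and was the sole gene of the list below 0.

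TNFAIP3, which encodes the ubiquitin-editing NF-kB inhibitor A20 (chr6:137867188-137883312, hg38, plus strand), had 122 counts in vector and 339 in circ, a log2 ratio of 1.56 (interval 1.26 to 1.87). The m6A genes were close to level. WTAP had 1013 and 1055 counts (0.15, interval 0.02 to 0.27), METTL3, the catalytic subunit, 449 and 409 (-0.05), and METTL14, its partner, 601 and 592 (0.07). Of 23 writers, erasers and readers 0 were at least 1.5-fold higher and 0 lower, and their median was -0.001. The widest apart were RBM15, an adaptor of the writer complex (235 and 278, 0.33), and ALKBH5, an eraser (674 and 510, -0.31). Among 17 genes that act on circular or double-stranded RNA the median was -0.04. There DGCR8, the partner of Drosha in microRNA processing, was at least 1.5-fold higher (597 and 902, 0.68), and AGO2, the slicing Argonaute, had 1045 and 718 counts (-0.45).

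**Figure D3:**
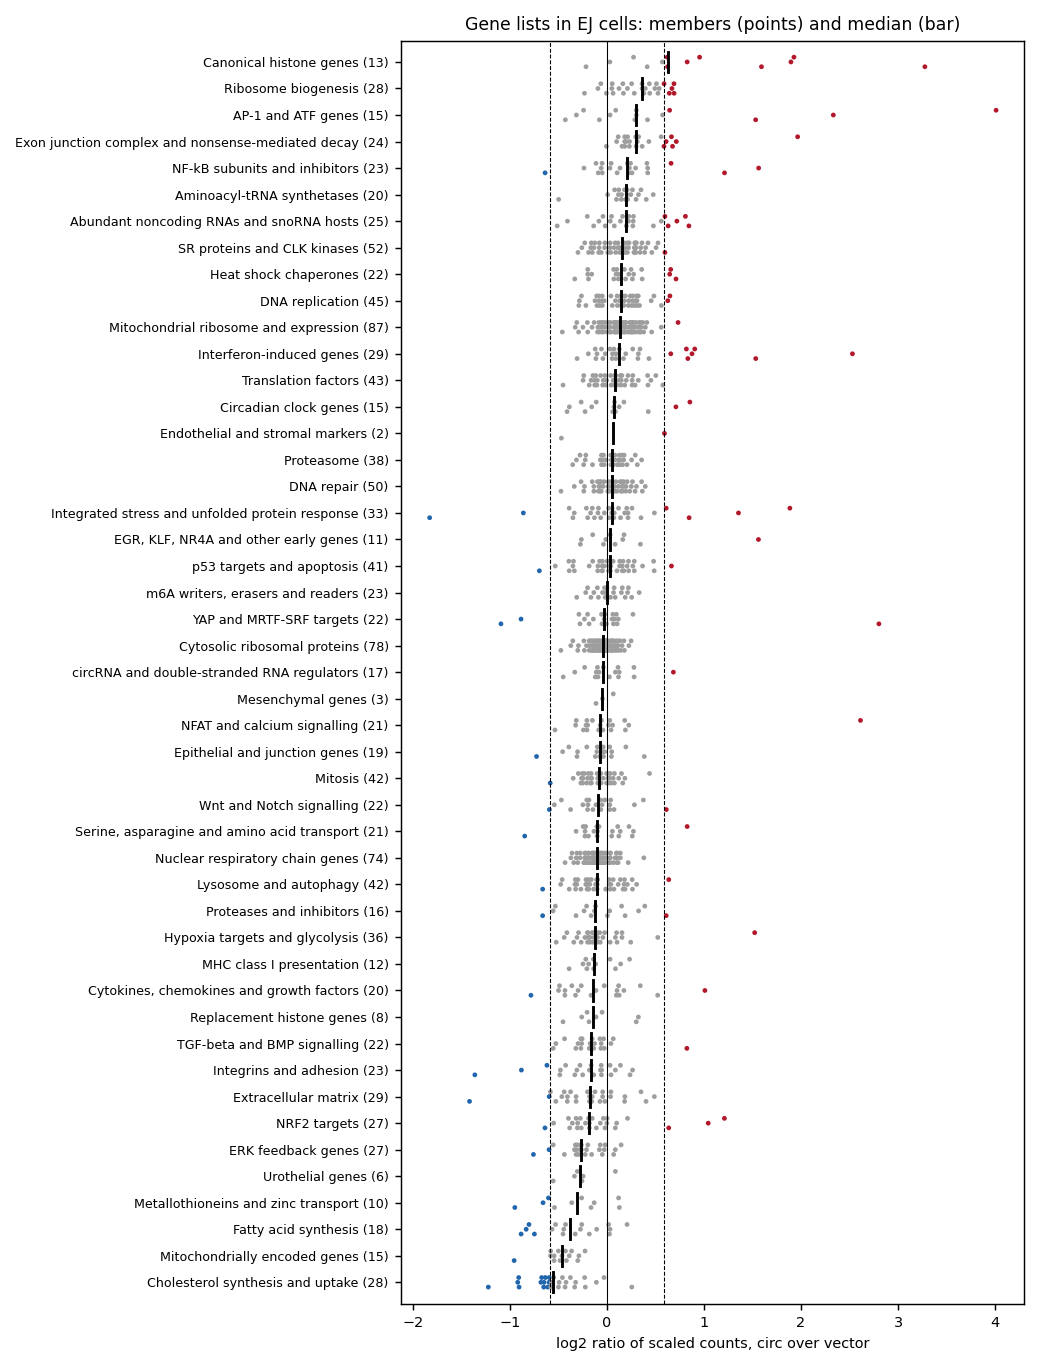
Each row is a gene list, with the number of kept members in brackets. Points are members, the black bar is the list's median, and the x axis is the log2 ratio of scaled counts, circ over vector. Red and blue points lie past 1.5-fold (dashed lines). Canonical histone genes are at the top (median 0.62) and cholesterol genes at the bottom (-0.56). Lists with fewer than 2 kept members are not drawn.

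Promoters of 8 genes described below are shown before their values. Their lists are known for a promoter motif, and their own windows hold a match to it. Among list members with a match, those with the largest ratios in size were taken. The choice rested on the ratios, so a direction given beside a motif is not a result about the motif. The sequences are RefSeq promoter windows of GRCh38.p14, 250 bases before to 50 after the annotated start, read 5′ to 3′ on the gene's strand. Such a window was matched by symbol and position for 9009 of the 12743 genes. Capitals mark a match to a short motif on either strand. In the windows of MSMO1 at chr4:165327419-165327718 (plus strand) and MVK at chr12:109573544-109573843 (plus strand), both lower in circ, they mark the sterol regulatory element core TCACNCCA, to which SREBP factors bind.
MSMO1: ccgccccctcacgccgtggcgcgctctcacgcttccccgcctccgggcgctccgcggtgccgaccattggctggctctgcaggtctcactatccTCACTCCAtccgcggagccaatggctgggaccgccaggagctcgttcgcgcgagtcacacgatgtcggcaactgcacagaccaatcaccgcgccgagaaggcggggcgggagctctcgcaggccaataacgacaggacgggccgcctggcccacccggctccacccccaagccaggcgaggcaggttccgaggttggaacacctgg
MVK: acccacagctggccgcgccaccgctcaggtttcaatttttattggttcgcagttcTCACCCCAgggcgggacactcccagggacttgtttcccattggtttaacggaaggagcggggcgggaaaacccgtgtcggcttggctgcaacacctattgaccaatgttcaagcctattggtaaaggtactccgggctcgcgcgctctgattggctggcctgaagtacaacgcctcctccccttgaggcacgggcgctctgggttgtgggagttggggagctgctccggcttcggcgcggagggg

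In the windows of the interferon-induced genes IFIT3 at chr10:89327747-89328046 (plus strand) and ISG15 at chr1:1013247-1013546 (plus strand), both higher in circ, capitals mark the repeated GAAANNGAA core of the interferon-stimulated response element, where IRF and STAT factors bind.
IFIT3: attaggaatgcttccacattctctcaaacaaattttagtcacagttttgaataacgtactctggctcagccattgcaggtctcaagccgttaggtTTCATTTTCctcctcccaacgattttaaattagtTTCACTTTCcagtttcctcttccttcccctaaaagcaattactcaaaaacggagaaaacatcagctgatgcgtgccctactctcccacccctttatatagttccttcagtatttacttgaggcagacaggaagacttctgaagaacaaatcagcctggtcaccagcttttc
ISG15: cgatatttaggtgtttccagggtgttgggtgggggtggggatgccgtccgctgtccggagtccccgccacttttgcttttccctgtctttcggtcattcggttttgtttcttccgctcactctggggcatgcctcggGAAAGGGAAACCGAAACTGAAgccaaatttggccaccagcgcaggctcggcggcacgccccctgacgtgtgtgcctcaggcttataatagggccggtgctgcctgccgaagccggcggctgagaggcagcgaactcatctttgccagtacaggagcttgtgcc

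In the windows of the histone genes HIST1H2BG, now H2BC8, at chr6:26216639-26216938 (minus strand), and HIST1H2AC, now H2AC6, at chr6:26123922-26124221 (plus strand), capitals mark the CCAAT box, to which NF-Y binds.
HIST1H2BG: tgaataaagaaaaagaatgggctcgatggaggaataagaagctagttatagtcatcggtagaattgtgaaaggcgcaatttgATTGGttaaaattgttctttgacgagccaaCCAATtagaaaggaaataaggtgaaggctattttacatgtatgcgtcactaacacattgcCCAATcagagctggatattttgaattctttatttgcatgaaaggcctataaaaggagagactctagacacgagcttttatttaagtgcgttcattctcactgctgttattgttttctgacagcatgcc
HIST1H2AC: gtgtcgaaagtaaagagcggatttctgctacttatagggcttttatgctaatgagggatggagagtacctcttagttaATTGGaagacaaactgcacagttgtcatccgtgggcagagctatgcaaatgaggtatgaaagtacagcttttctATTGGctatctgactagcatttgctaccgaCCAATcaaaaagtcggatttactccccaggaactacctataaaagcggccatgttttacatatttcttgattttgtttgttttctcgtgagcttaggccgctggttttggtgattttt

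CHAC1 at chr15:40953221-40953520 (plus strand), among the lowest genes in circ, carried a match to the C/EBP-ATF response element TGATGNAA, a site of ATF4. HSPA1A at chr6:31815293-31815592 (plus strand), a heat shock gene higher in circ, carried the paired half-sites GAANNTTC of the heat shock element.
CHAC1: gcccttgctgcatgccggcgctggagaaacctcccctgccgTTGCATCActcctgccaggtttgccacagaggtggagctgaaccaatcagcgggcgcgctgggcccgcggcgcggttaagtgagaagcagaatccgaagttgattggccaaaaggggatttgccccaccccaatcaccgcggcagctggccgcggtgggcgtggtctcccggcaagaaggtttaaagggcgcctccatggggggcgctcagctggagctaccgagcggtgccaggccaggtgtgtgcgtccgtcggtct
HSPA1A: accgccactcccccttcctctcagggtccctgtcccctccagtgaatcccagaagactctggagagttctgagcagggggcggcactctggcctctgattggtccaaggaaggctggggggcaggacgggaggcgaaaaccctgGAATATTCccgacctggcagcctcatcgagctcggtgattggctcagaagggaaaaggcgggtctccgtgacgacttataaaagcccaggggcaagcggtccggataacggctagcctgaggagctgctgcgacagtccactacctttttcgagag

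The motifs were then counted over all windows of the same length, as a description only. The sterol core was found in 3 of 22 windows of cholesterol genes (13.6%), against 3.23% of kept genes and 3.93% of all 27305 windows, and INSIG1 and HMGCS1 held none in their windows. The interferon core was found in 10 of 22 windows of interferon-induced genes (45.5%), against 6.23% of kept genes and 8.29% of all. The CCAAT box was found in 10 of 12 histone windows (83.3%), against 37.5% of kept genes and 35.7% of all. The heat shock pair was found in 7 of 20 heat shock windows (35.0%), against 4.54% and 6.87%, and the C/EBP-ATF element in 3 of 30 stress response windows, against 1.499% and 3.67%.

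Over all genes at least 1.5-fold higher (234 windows) or lower (227 windows), the sterol core was in 3.85% of windows of higher genes and 3.97% of lower ones, and the interferon core in 8.55% and 5.29%. The CCAAT box was in 35.9% and 43.6%, the heat shock pair in 5.98% and 1.76%, and the C/EBP-ATF element in 2.56% and 0.441%. TGANTCA, the AP-1 site, was in 7.69% and 4.85%, against 4.13% of kept genes. TGACGTCA, the cyclic AMP response element, was in 4.70% and 1.76%, against 3.49% of kept genes. In the AP-1 and ATF list, that element was found in 2 of 12 windows, those of MAFF and JUND, and in none of FOS, FOSB or ATF3.

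FOSB had the largest ratio of all named genes. FOS proteins pair with JUN proteins to form AP-1, a transcription factor that responds within minutes to growth signals and stress. FOSB had 13 counts in vector and 197 in circ (4.01, interval 3.20 to 4.95), and FOS 19 and 90 (2.33, interval 1.61 to 3.13). ATF3, a stress-induced partner of JUN, had 423 and 1150 (1.53), and JUN itself 2668 and 3923 (0.65). Of 15 AP-1 and ATF genes these 4 were at least 1.5-fold higher and 0 lower, 11 lay above 0, and the median was 0.30. FOSL1, the FOS relative with the most counts, stood just inside the fold with 1862 and 2602 (0.57). ATF4 (7693 and 5811, -0.32) and MAFK (626 and 437, -0.43) were on the lower side.

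Most other early genes that passed the count limit did not share this. Of 19 listed EGR, KLF, NR4A and further early genes 11 were kept. Those left out had at most 47 counts in either library, whereas FOSB and FOS passed the limit only through circ. Of the 11, 1 was at least 1.5-fold higher, KLF10, a TGF-beta-induced repressor (234 and 649, 1.56). EGR1, the archetype of the class, had 895 and 820 counts (-0.04), MYC 1309 and 1220 (-0.01), and IER2 588 and 624 (0.17). The list's median was 0.03, near that of all genes. NR4A2, an orphan nuclear receptor, had 93 and 111 (0.34). A mixed list of genes tied to ERK signalling lay lower. Of 27, 3 lay above 0 and 2 were at least 1.5-fold lower, SPRY4 (3252 and 2020, -0.60) and SPRED3 (54 and 30, -0.76), with a median of -0.27. The 7 phosphatases and the 5 Sprouty and SPRED genes, which dampen the signal, had medians of -0.21 and -0.275. The 7 transcription factors on the list had a median of -0.07. All 8 receptors and ligands on that list lay below 0, among them EGFR (6798 and 5064, -0.34) and ERBB3 (275 and 176, -0.55).

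PPP1R15A, which encodes the phosphatase subunit GADD34 that ends the integrated stress response, had 2888 counts in vector and 6947 in circ (1.36, interval 1.29 to 1.42). NUPR1, a stress-induced chromatin protein, had 19 and 66 (1.89), DDIT3, the factor CHOP, 381 and 644 (0.85), and HSPA5, the main chaperone of the endoplasmic reticulum, 7488 and 10746 (0.61). Other genes of the same response were lower. CHAC1, a glutathione-degrading enzyme, had 68 and 18 (-1.83, interval -2.67 to -1.06), and DDIT4, an inhibitor of mTORC1, 3588 and 1855 (-0.86). The list thus held 4 of 33 genes at least 1.5-fold higher and 2 lower, with a median of 0.05. Its chaperone and degradation genes lay above 0 in 13 of 17 cases and its regulators in 6 of 16.

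Genes of amino acid supply lay on both sides too. SLC3A2, the shared heavy chain of several amino acid exchangers, had 3523 and 5872 counts (0.83), whereas SLC38A2, a transporter of small neutral amino acids, had 3411 and 1780 (-0.85). ASNS, which makes asparagine, was near level with 1400 and 1431 (0.12), and PHGDH, which opens serine synthesis, with 4605 and 4671 (0.11). Of 21 such genes those 2 transporters were the ones past 1.5-fold, and the median was -0.10. The cytosolic aminoacyl-tRNA synthetases, which charge transfer RNAs, lay above 0 in 19 of 20 cases by small amounts, with a median of 0.20 and 0 past 1.5-fold. FARSA was farthest above (1178 and 1540, 0.48), and QARS was the exception (3160 and 2102, -0.50).

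Among the heat shock chaperones, the HSPA1 pair and BAG3 were higher. HSPA1A had 2772 and 4267 counts (0.71), HSPA1B 3511 and 5200 (0.66), and BAG3, a co-chaperone, 548 and 806 (0.65). HSPA1A and HSPA1B are near-identical copies, so reads may be split between them and their separate values are uncertain. The constitutive HSPA8 was level (18968 and 19018, 0.09), and HSPB1, the small heat shock protein HSP27, lower (1497 and 1117, -0.33). DNAJB1 was also near level (0.07), and HSPD1 (-0.19) and HSPE1 (-0.20) lay below 0. Of 22 kept chaperone genes 3 were at least 1.5-fold higher, 0 lower, and 17 lay above 0, with a median of 0.15.

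The NRF2 list, which serves defence against oxidants, held differences in both directions. HMOX1, which degrades haem, had 120 and 261 counts (1.21, interval 0.89 to 1.53), OSGIN1, a growth inhibitor, 32 and 62 (1.04), and SQSTM1, an autophagy receptor, 1976 and 2886 (0.64). PRDX1, a peroxiredoxin, was lower with 5425 and 3274 (-0.64). Of 27 genes 3 were at least 1.5-fold higher and 1 lower, 7 lay above 0, and the median was -0.18. The 7 glutathione genes had ratios from -0.32 to -0.002, and the counting interval lay wholly below 0 for 3 of them. Among the 7 was the cystine transporter SLC7A11 (479 and 361, -0.32). NFE2L2, the gene of NRF2 itself, was level with 811 and 763, a log2 ratio of 0.001.

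Metallothioneins, small proteins that bind zinc and copper, were lower. MT2A had 77147 counts in vector and 47722 in circ (-0.60), MT1E 679 and 404 (-0.66), and MT1X 146 and 71 (-0.95). These were the kept metallothioneins, 3 of 3 at least 1.5-fold lower, and the 10 genes with zinc transporters had a median of -0.31. Metallothionein genes are close copies of each other, so their separate counts are uncertain. MTF1, the zinc sensor that induces them, had 381 and 389 counts (0.12). SAT1, which acetylates polyamines for export, also lost share, with 21811 and 10169 counts (-1.01, interval -1.05 to -0.98).

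Hypoxia targets and glycolytic enzymes lay slightly low. ADM, the vasodilator peptide adrenomedullin, was the sole gene past 1.5-fold among 36, with 20 and 54 counts (1.52), and 9 lay above 0 with a median of -0.13. HIF1A had 2371 and 1673 (-0.41), ANGPTL4 263 and 172 (-0.52), and HK2, a hexokinase, 205 and 277 (0.52). Of 18 glycolysis genes 2 lay above 0, 0 were past 1.5-fold and the median was -0.14. The counting interval lay wholly below 0 for 14 of the 18, against 22.11% of all kept genes. GAPDH had 30890 and 27557 counts (-0.08).

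Of the 4 kept IFIT genes, a family induced by interferon, 3 were at least 1.5-fold higher. These proteins bind foreign RNA or block its translation. IFIT2 had 21 counts in vector and 114 in circ (2.53, interval 1.85 to 3.28), IFIT3 61 and 166 (1.53), and IFIT1 62 and 107 (0.88), while IFIT5 had 157 and 184 (0.32). ISG15, a ubiquitin-like modifier, had 112 and 197 (0.90), ZC3HAV1, an antiviral RNA binder, 551 and 913 (0.82), IRF9, a part of the interferon-activated factor ISGF3, 234 and 392 (0.83), and PARP9 112 and 166 (0.66). These 7 of 29 kept genes were at least 1.5-fold higher and 0 were lower. The 29 come from 51 listed genes, and a gene low in vector, as IFIT2, could pass the count limit only through circ. The count of 7 is therefore no share of the whole family. The list's median was 0.13, however, and its transducers other than IRF9 were closer to level, with STAT2 at 241 and 220 (-0.04) and JAK1 at 2013 and 1655 (-0.19). The RNA sensors DDX58 (242 and 288, 0.34) and IFIH1 (121 and 130, 0.19) stood between, and no interferon gene on the list passed the count limit. MHC class I genes, which interferon also raises, held 0 of 12 past 1.5-fold and a median of -0.14, with B2M at 1349 and 1068 (-0.25) and TAPBP at 1241 and 890 (-0.39).

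NF-kB genes lay on the higher side as a list. Beside TNFAIP3, TRAF1, an adaptor of TNF receptors, had 51 and 111 counts (1.21), and NFKBIB, an inhibitor of the IkB family, 478 and 710 (0.66). TRAF6, an adaptor of Toll-like receptors, was at least 1.5-fold lower on few counts (53 and 32, -0.64, interval -1.32 to 0.02). Of 23 genes 3 were higher and 1 lower, 16 lay above 0, and the median was 0.21. NFKB2 had 1839 and 2312 (0.42), and NFKBIA, the usual feedback inhibitor, 923 and 1154 (0.41). Secreted factors and their receptors had no common direction. Of 20, CXCL2 was at least 1.5-fold higher (37 and 70, 1.01) and IL1R1 lower (77 and 42, -0.79), CXCL8 had 303 and 254 (-0.17), and the median was -0.14.

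Canonical histone genes, whose messages are made mainly in S phase and mostly lack a poly(A) tail, had the highest median of the 48 lists, 0.62. How far RNA without a tail was captured in these libraries is not known. Of 64 listed, 13 passed the count limit, of which 8 were at least 1.5-fold higher, 0 lower, and 12 above 0. The exception was H1FX, an H1 variant listed here (-0.22). HIST1H2BG had 9 counts in vector and 82 in circ (3.28, interval 2.28 to 4.46), HIST1H2AC 108 and 386 (1.93), HIST2H4A 32 and 112 (1.90), and HIST1H2BD 30 and 85 (1.59). Since a gene low in vector could pass the limit only through circ, these 13 are not the whole family and their median gives no more than their own level. Histone copies share sequence, so reads may be split among them. The replacement histones, made throughout the cycle from polyadenylated messages, held 0 of 8 past 1.5-fold and a median of -0.15, with H2AFZ at 2954 and 2317 (-0.26), CENPA at 513 and 352 (-0.45), H3F3B at 3547 and 4108 (0.30) and H2AFY2, a macroH2A gene, at 199 and 234 (0.32).

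**Figure D4:**
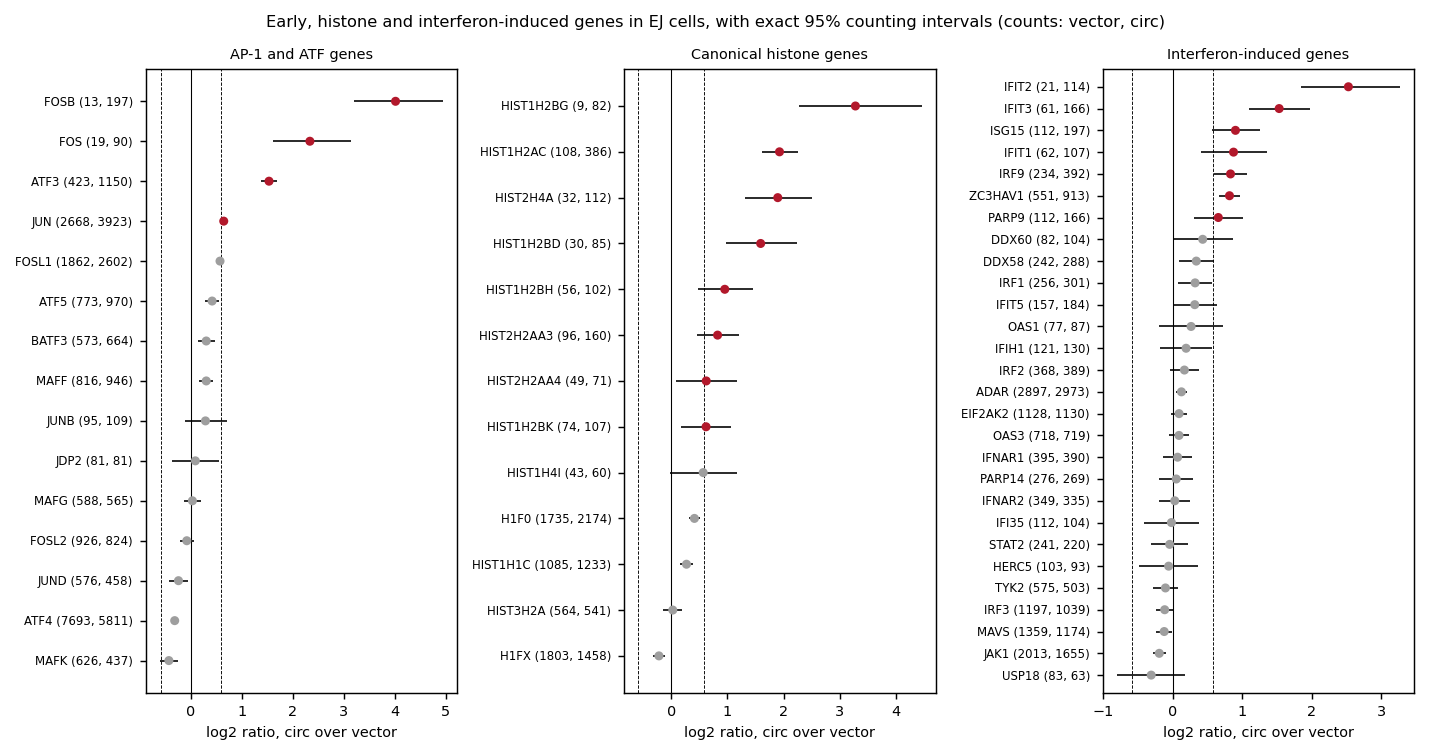
Points are log2 ratios of scaled counts in EJ cells, circ over vector, and lines are exact 95% counting intervals. Raw counts (vector, circ) follow each symbol, and the dashed lines mark 1.5-fold. From left to right are 15 AP-1 and ATF genes, 13 canonical histone genes and 28 of the 29 interferon-induced genes, of which 4, 8 and 7 lie past 1.5-fold higher (red) and 0 lower.

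Replication genes lay mostly above 0 by small amounts. The 15 licensing genes, which load the MCM helicase on origins before S phase, lay above 0 in 14 cases with a median of 0.25, with MCM3 at 8273 and 9638 (0.31), CDC6 at 1529 and 2009 (0.48) and MCM10 at 634 and 920 (0.63). CCNE2, a G1/S cyclin, had 285 and 420 (0.65). Of all 45 replication genes, MCM10 and CCNE2 were at least 1.5-fold higher, 0 were lower and the median was 0.15. PCNA, the sliding clamp, had 2007 and 1732 (-0.12). The 42 mitosis genes had a median of -0.09, 14 above 0 and 1 at least 1.5-fold lower, CKS2, a subunit of mitotic kinases (674 and 422, -0.59). CDC25A, a phosphatase that activates these kinases, had 267 and 340 (0.44). MKI67, the common proliferation marker, was level (27562 and 25822, -0.005).

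Cholesterol synthesis and uptake was the list with the most members lower. Cells make cholesterol from acetyl-CoA through a chain of enzymes whose genes SREBP2 switches on when sterols are scarce, and INSIG1 holds SREBP2 back. Of 28 kept genes, 12 were at least 1.5-fold lower and 0 higher, and 1, PMVK, a mevalonate-chain kinase (810 and 909, 0.26), lay above 0. The median was -0.56. INSIG1 had 2321 counts in vector and 934 in circ, or 148 and 63.5 CPM (-1.22, interval -1.34 to -1.11). DHCR7, the last enzyme of the chain, had 1812 and 900 (-0.92), MSMO1, a demethylating oxidase, 266 and 133 (-0.91), and STARD4, a sterol carrier, 967 and 485 (-0.91).

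Most enzymes along the chain lay below 0, apart from PMVK and from TM7SF2, a sterol reductase that was near level (50 and 46, -0.03). HMGCS1, an early enzyme of the chain, had 3610 and 2221 (-0.61), and SQLE, which opens the sterol branch, 1763 and 1056 (-0.65). MVK, the mevalonate kinase, had 718 and 477 (-0.50). MVD (3157 and 1850, -0.68), FDPS (6759 and 4042, -0.65) and LSS (2261 and 1332, -0.67) make the isoprenoid and lanosterol steps between them. The SREBP factors and their escort were less far apart, with SREBF2 at 1976 and 1430 (-0.38), SREBF1 at 1062 and 726 (-0.46) and SCAP, the escort, at 302 and 263 (-0.11). The counting interval lay wholly below 0 for 24 of the 28 genes, against 22.11% of all kept genes.

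Fatty acid synthesis, the target of the related factor SREBP1, was lower as well. SCD, which places the double bond of oleate, had 11940 counts in vector and 6426 in circ (-0.80), FASN, the synthase itself, 9620 and 5383 (-0.75), and ACSS2, which activates acetate, 1079 and 549 (-0.89). TMEM97, a sterol-responsive membrane protein listed here, had 567 and 299 (-0.83). These 4 of 18 were at least 1.5-fold lower, 0 were higher, 4 lay above 0 and the median was -0.38. ACLY, which supplies acetyl-CoA, stood just inside the fold (8709 and 5528, -0.57), while FADS1 and FADS2, the desaturases of polyunsaturated chains, were level at 2453 and 2346 (0.025) and 409 and 393 (0.03).

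**Figure D5:**
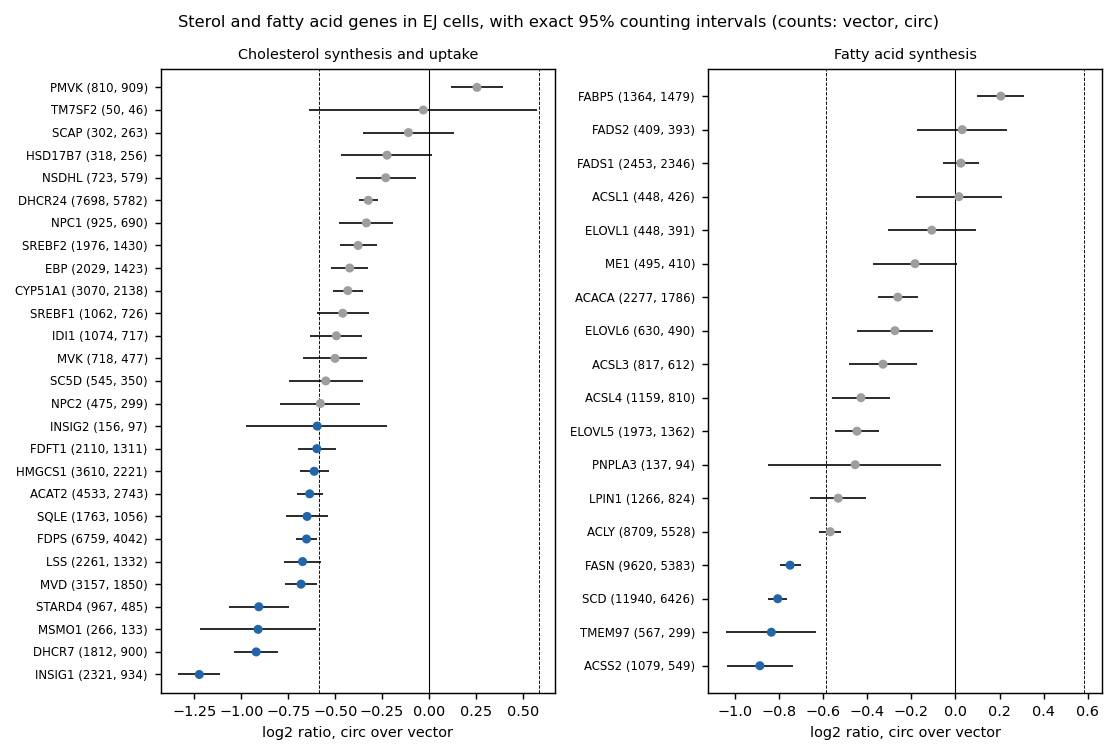
Points are log2 ratios of scaled counts in EJ cells, circ over vector, and lines are exact 95% counting intervals. Raw counts (vector, circ) follow each symbol, and the dashed lines mark 1.5-fold. Of the 27 cholesterol genes drawn (left) 12 and of 18 fatty acid genes (right) 4 lie past 1.5-fold lower (blue), and PMVK and FABP5 lie highest in their panels.

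Noncoding neighbours of sterol genes were low too. In the pair MVD/SNAI3-AS1, whose genes start within 1000 bases of each other on opposite strands and share 0 exon bases, SNAI3-AS1 had 60 counts in vector and 21 in circ (-1.43, interval -2.22 to -0.69). In the pair STARD4-AS1/STARD4, which shares 124 exon bases, the antisense transcript had a log2 ratio of -0.83. OLMALINC, a noncoding RNA on chromosome 10 near SCD, had 270 and 136 (-0.90), and RUSC1-AS1, near FDPS on chromosome 1, 2607 and 1513 (-0.70). SNAI3-AS1 is named for its low ratio, and the other noncoding neighbours given here and beside RBM3 and CTGF were chosen after their values were seen. The use of strand in counting is not given in the sources used here, so where exons overlap the reads of the 2 strands cannot be told apart.

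Targets of YAP and of the actin-sensing factor MRTF lay on both sides of 0. ANKRD1, a nuclear and sarcomeric adaptor, had 87 counts in vector and 571 in circ (2.80, interval 2.48 to 3.15). The matricellular proteins CTGF (5409 and 2383, -1.09) and CYR61 (9670 and 4917, -0.89), both also classic YAP targets, were at least 1.5-fold lower. The other genes of the 22 lay within 1.5-fold, with AMOTL2 at 2197 and 2220 (0.10), AXL at 4787 and 4325 (-0.06) and MYH9 at 91159 and 91629 (0.10), and the median was -0.03. ACTG1, cytoplasmic gamma actin, had 50862 and 34888 (-0.45). In the pair RP11-69I8.3/CTGF, which shares 195 exon bases, the antisense transcript had a log2 ratio of -1.31.

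NFATC2, a calcium-activated transcription factor, had 20 counts in vector and 115 in circ (2.61, interval 1.92 to 3.38) and was the sole one of 21 NFAT and calcium genes past 1.5-fold. NFATC1 (145 and 131, -0.06) and RCAN1, a common NFAT target (237 and 254, 0.19), were near level, NFAT5, the osmotic member of the family, was at 2062 and 1336 (-0.54), and the median was -0.07. MYH3, embryonic myosin heavy chain, had 50 and 213 (2.18), and KCNF1, a potassium channel subunit, 19 and 72 (2.01). AMH, anti-Müllerian hormone, had 32 and 111 (1.88), and WDR78, a gene of dynein assembly in cilia, 10 and 50 (2.41). NFATC2, MYH3, KCNF1, AMH and WDR78 are little counted in EJ, with at most 213 counts in either library.

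Matrix and adhesion genes lay mostly on the lower side. ITGB8, an integrin that activates TGF-beta, had 93 and 34 counts (-1.36), ITGB3, the vitronectin receptor's beta chain, 828 and 422 (-0.88), and COL6A2, a type VI collagen chain, 54 and 19 (-1.42). Of 11 integrins 3 were at least 1.5-fold lower and 1 lay above 0. The whole integrin and adhesion list (23 genes) held those 3 lower, 0 higher and a median of -0.16. Of 29 matrix genes 2 were at least 1.5-fold lower, COL6A2 and MATN2 (362 and 225, -0.60), 0 higher, and the median was -0.18, with FN1, fibronectin, at 2887 and 1882 (-0.53) and LAMB3 at 3322 and 3980 (0.35).

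Proteases and their inhibitors had a median of -0.12 over 16 genes. CTSD, a lysosomal protease, was at least 1.5-fold lower (519 and 308, -0.66) and ADAMTS6 higher (69 and 99, 0.61). Among 19 epithelial and junction genes 1 was at least 1.5-fold lower, the tight junction gene CLDN1 (2967 and 1685, -0.73), 5 lay above 0 and the median was -0.08. KRT7 was the highest of them (0.38), and JUP, a desmosome and junction protein, had 1666 and 1140 (-0.46). The 3 kept mesenchymal genes and the 6 kept urothelial genes, mostly receptors such as ERBB2 (1525 and 1160, -0.31), held 0 past 1.5-fold, with medians of -0.05 and -0.28.

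TGF-beta and BMP signalling genes lay above 0 in 3 of 22 cases, with a median of -0.16. ID3, an inhibitor of differentiation factors, was the sole gene past 1.5-fold (104 and 173, 0.82), and SMAD1 was lowest (100 and 64, -0.55). In Wnt and Notch signalling, HES4 (55 and 79, 0.61) was higher and FZD7 (135 and 84, -0.60) lower among 22 genes, with a median of -0.09. Of 15 clock genes BHLHE41 (113 and 192, 0.85) and NR1D1 (93 and 143, 0.71), both transcriptional repressors, were higher, 0 lower, and the median was 0.07, while ARNTL, the core activator, had 133 and 94 (-0.41).

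Transcripts of the mitochondrial genome were lower. All 15 protein and ribosomal RNA genes lay below 0, with a median of -0.47, and mitochondrial genes took 5.40% of the vector counts and 4.01% of the circ counts. MT-ND5, a complex I subunit, had 104313 and 65502 counts (-0.58), MT-CO2, a subunit of cytochrome oxidase, 36831 and 23153 (-0.58), and MT-ND6, on the light strand, 50128 and 32269 (-0.55). The ribosomal RNA MT-RNR2 had 108921 and 83065 (-0.30). MT-CO3 was nearest to level (54374 and 43674, -0.23), while MT-RNR1, the small ribosomal RNA, was the sole gene past 1.5-fold (2481 and 1201, -0.96). With totals that leave out mitochondrial genes 3 passed, since MT-ND5 and MT-CO2 lie close to the limit. The 22 mitochondrial transfer RNAs had a median of -0.55 with 9 at least 1.5-fold lower, led by MT-TS1 (1584 and 677, -1.14). Strand use in counting is not given, and reads of adjoining mitochondrial genes may count to these. They are therefore not 22 separate measurements. Fewer mitochondria per cell and less RNA per mitochondrion cannot be told apart in bulk RNA.

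Nuclear genes for mitochondria were less far apart. The 74 nuclear respiratory chain genes had a median of -0.10, 17 above 0 and 0 past 1.5-fold, from ATP5C1 (1186 and 826, -0.43) to NDUFV3 (782 and 956, 0.38). The 87 genes of the mitochondrial ribosome and of mitochondrial transcription lay on the other side, with 65 above 0, a median of 0.13 and MRPS31 at least 1.5-fold higher (162 and 253, 0.73). MRPS18B, also of the small subunit, had 1172 and 1623 (0.56). TFAM, which packs and transcribes mitochondrial DNA, was level at 769 and 759 (0.07).

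Ribosome biogenesis genes lay mostly above 0. Of 28 nucleolar factors 5 were at least 1.5-fold higher, 0 lower and 24 above 0, with a median of 0.36. PES1 had 3820 and 5800 counts (0.69), RRP12 2334 and 3539 (0.69), RRS1 938 and 1402 (0.67), NOP2, a methyltransferase of ribosomal RNA, 1994 and 2925 (0.64), and NOP14, which serves the small subunit, 3024 and 4274 (0.59). NCL, nucleolin, had the largest gain in CPM of all named genes, from 4786 to 6146 (74842 and 90367 counts, 0.36). Other abundant genes gained CPM on small ratios, as the chaperones HSP90AB1 (86561 and 88285, 0.12) and HSP90AA1 (55993 and 59597, 0.18), the cytolinker PLEC (17950 and 24364, 0.53) and the kinase scaffold AKAP12 (34948 and 39015, 0.25). The 78 cytosolic ribosomal protein genes themselves were near level, with a median of -0.04, 28 above 0 and 0 past 1.5-fold, and lay between RPS28 (478 and 323, -0.48) and FAU (4231 and 4723, 0.25). RPS21 was the next lowest (1170 and 849, -0.37).

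Splicing and translation genes showed small differences. Among 52 SR protein, CLK kinase and spliceosome genes CLK4, a splicing kinase, was at least 1.5-fold higher (372 and 529, 0.60), 0 were lower and 37 lay above 0, with a median of 0.15. HNRNPU (20405 and 27612, 0.53) and HNRNPM (19399 and 25877, 0.50), abundant RNA binders, and EIF3A, the large scaffold of initiation factor eIF3 (23312 and 32650, 0.58), were among the largest gains in CPM. The 43 translation factors held 0 past 1.5-fold and a median of 0.08, with EIF6, which keeps the ribosomal subunits apart, at 828 and 1103 (0.50). Host genes of small nucleolar RNAs were higher in part, with SNHG17 (173 and 292, 0.84), SNHG8 (260 and 428, 0.81), DANCR (62 and 96, 0.72), ZFAS1 (1255 and 1826, 0.63) and SNHG15 (173 and 246, 0.60) at least 1.5-fold higher. The list of 25 abundant noncoding and host RNAs held those 5, 0 lower and a median of 0.20, and MALAT1 had 2060 and 2131 (0.14) and NEAT1 2785 and 3647 (0.48). Read by name, the 16 kept SNHG genes, not all of them on the list, held 4 higher and 1 lower (-0.67), with a median of 0.19.

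Death, repair and degradation genes were close to the level of all genes. Of 41 p53 targets and apoptosis genes 1 was at least 1.5-fold higher, AEN, a nuclease (423 and 630, 0.66), and 1 lower, CCNG1 (678 and 393, -0.70), with a median of 0.03. CDKN1A, the p53-induced cell cycle inhibitor, had 699 and 635 (-0.05). The 10 caspase and caspase-inhibitor genes lay between 0.001 and the 0.37 of CASP8 (519 and 629). Of 50 DNA repair genes 0 were past 1.5-fold, with a median of 0.05. FANCG, a Fanconi anaemia gene, was lowest (686 and 464, -0.475), and UNG, the uracil glycosylase, had 481 and 582 (0.36). The 38 proteasome genes held 0 past 1.5-fold and a median of 0.055, with 4 of 14 core genes and 20 of 24 regulatory genes above 0. The activators PSME3 (2688 and 3235, 0.36) and PSME4 (613 and 451, -0.35) were its extremes. Among 42 lysosome and autophagy genes, which had a median of -0.11, SQSTM1 was higher (0.64) and CTSD lower (-0.66), and 5 of 23 lysosome genes lay above 0.

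The remaining named genes with the lowest ratios were little counted. SDCBP2, a PDZ-domain scaffold, had 80 counts in vector and 16 in circ (-2.23, interval -3.11 to -1.45), and EVA1B 85 and 23 (-1.80). KCNMB4, a subunit of calcium-activated potassium channels, had 83 and 32 (-1.29), and SYT12, a synaptotagmin, 90 and 35 (-1.27). TMEFF2 (121 and 47, -1.275), SLC29A4, a monoamine transporter (70 and 27, -1.285), RPSAP52 (62 and 23, -1.34), MEIS3 and TESK2 (each 56 and 21, -1.33) complete the group. With more counts, SLCO4A1, an organic anion transporter, had 1602 and 718 (-1.07) and HMG20B, a subunit of a histone demethylase complex, 4191 and 1915 (-1.04). NRP2, a semaphorin and VEGF co-receptor, had 204 and 80 (-1.26). SLCO4A1-AS1, on the other strand of that locus, had 218 and 93 (-1.14).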

How the data were processed

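Libraries were made from total RNA of EJ cells after transfection with hsa_circ_0008399 or vector, 1 library each. Selection of RNA by its poly(A) tail, or depletion of ribosomal RNA, is not described here. How far RNA without a tail was captured is therefore not known. Trimmomatic, HISAT2 and hg38 are named in the submitters' processing notes; the counting tool, annotation, strand use and pooling are not given in the sources used here. The authors deposited read counts for 56303 genes and RPKM values for 29817. The deposited RPKM equalled count over length and total in 100% of values (relative tolerance 1e-06) and served as an alternative. Columns were matched to samples by their descriptions.

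Genes with 50 or more counts in the higher library were kept. Log2 ratios of counts scaled by library total carry exact 95% binomial intervals (scipy 1.17.1), which cover counting error only; their coverage was checked on simulated counts. Calls are at least 1.5-fold, with no test. Alternatives were TMM and RLE scaling (edgeR 4.0.16), totals without mitochondrial genes, other filters, a prior count, RPKM, thinning and stricter calls. Gene types follow GENCODE 29 on hg38 (12682 of 12743 genes matched), and promoters RefSeq.

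Named genes are RBM3, TNFAIP3, WTAP, METTL3, METTL14 and EIF4A3, the 15 highest and 15 lowest ratios, the 15 per direction with the interval bound farthest from 1, the 10 per direction with the largest change in CPM, and members of 48 gene lists. Clone names were left out of these ranks. The members, lists and rule were chosen with earlier results of these data known. Some list members are not reported here by name.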

Additional observations from a re-analysis of the deposited data

Results flagged for a closer look

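DDIT4 and SLC7A11-AS1 lay on opposite sides of 0 in the cell lines, with 1 library per group, and the difference between the lines was not tested. Only the named genes, the kept list members and a few genes added by hand, SLC7A11-AS1 among them, were searched. The other kept genes were not searched for such differences. DDIT4 had a log2 ratio of -0.863 in EJ (3588 counts in vector, 1855 in circ) and of 1.08 in T24T (3884 and 8797). SLC7A11-AS1, an antisense transcript at the cystine transporter gene, had -1.071 in EJ (114 and 51) and 1.26 in T24T (28 and 72). Each was at least 2-fold apart in one line at least and past 1.5-fold in both.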

How the results depend on the processing

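No paired analysis was possible because each group had 1 library. Genes at least 1.5-fold higher and lower, 375 and 397, were 1148 and 1057 with a 10-count limit (16627 genes kept), 152 and 145 with a 200-count limit (8825 genes kept), 158 and 129 as log2(RPKM + 1) differences, and 56 and 39 at 2-fold. They stayed within 1.5 times under TMM (393 and 371), RLE (401 and 362), totals without mitochondrial genes (332 and 444), a 50-count limit on the mean (327 and 328), a prior count (359 and 368), thinning (373 and 382) and the added demand that the interval leave out 0 (372 and 381). Under all 3 scalings, 332 of the 375 and 362 of the 397 remained. The median of the cytokine, chemokine and growth factor list was 0.096 with the 10-count limit, where -0.14 was reported; that limit let in genes with fewer counts. Medians close to 0 also changed sign: other early genes (0.032) to -0.013 with the 200-count limit, circRNA regulators (-0.039) to 0.024 and the 2 stromal markers (0.06) to -0.471 with the 10-count limit, and m6A genes (-0.001) to 0.01 under TMM, 0.014 under RLE and 0.002 after thinning. List counts that rest on genes close to 1.5-fold also moved with the scaling: the lower ERK feedback genes and the lower matrix genes from 2 to 1 under RLE, the lower mitosis and Wnt and Notch genes from 1 to 0 and the higher translation factors from 0 to 1 under TMM and RLE, and, with totals without mitochondrial genes, the higher splicing genes and stromal markers from 1 to 0 and the lower mitochondrial genes from 1 to 3. Without replicates the spread between cultures is unknown, and ratios of genes near 50 counts are the least precise.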

Other observations

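Gene families that no list covered as a whole were read by name, chosen after their values were seen. Some of their members are also on the lists above, such as SLC3A2 and DDX58. Of 43 DEAD-box and DEAH-box helicases, which remodel RNA, 36 lay above 0 with a median log2 ratio of 0.18. DDX56 (473 and 710 counts, 0.67) and DDX27 (5945 and 8436, 0.59), both helicases of ribosome assembly, were at least 1.5-fold higher and 0 were lower. Of 142 solute carrier genes 6 were higher (4.2%), 11 lower (7.7%) and 44 above 0, with a median of -0.15. They ran from SLC29A4 (70 and 27, -1.285) to SLC16A9, a carnitine and monocarboxylate transporter (37 and 84, 1.27). Of 24 protocadherin genes 23 lay below 0 and 0 were past 1.5-fold, with a median of -0.46. Most protocadherins of a cluster share their last exons, so reads may be split among them, and these are not 24 separate measurements. The 375 zinc finger genes named ZNF were centred on 0.002, with 11 higher (2.93%) and 7 lower (1.87%).

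Among gene types, long intergenic RNAs (177 genes) had a median of 0.09 with 17 higher and 14 lower, and transcribed unprocessed pseudogenes (146) a median of 0.12 with 16 higher and 5 lower. Protein-coding genes (10872) had 260 higher (2.39%) and 304 lower (2.80%). Genes of any type with a mean count under 100 passed at 7.89% and 9.56%. Depth and gene type were not separated here. Genes on opposite strands whose starts lie within 1000 bases of each other formed 1314 pairs, of which 59.1% had ratios of the same sign. Where the pair shared no exon bases the value was 55.9% of 692 pairs. In 6 pairs both genes were at least 1.5-fold higher and in 6 both were lower. A start here is the outermost of a gene's annotated transcripts, which can lie far from the start of its RefSeq promoter window, as for ISG15. The higher pairs include DTX3L/PARP9, with log2 ratios of 0.77 and 0.66 and 217 shared exon bases. Pairs share a library and, where exons overlap, possibly reads, and these shares carry no test.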
